A study of Mus musculus with 14 samples.

Results

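The genes described here encode the machinery that loads and presents peptides on major histocompatibility complex (MHC) class II molecules. The members were chosen by name, and every probe set that the array's annotation assigns to one of them was taken. These 7 genes were Cd74, H2-Aa, H2-Ab1, H2-Eb1, H2-DMa, H2-DMb1 and Ciita. All but H2-DMb1 were among the 12393 genes with a probe set of their own on the array. These 6 genes had 10 probe sets of their own, of 22690 on the array, and were tested among 8612 genes. H2-DMb1 had none, because both probe sets that detect it are annotated to its paralog H2-DMb2 as well.

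RNA was measured on 14 Affymetrix arrays, with 1 array per sorted sample of mouse bone marrow. The knockout (KO) groups were Dnmt1fl/fl mice with the Mx-Cre transgene and the control groups were Dnmt1fl/fl littermates without it, all on a C57BL/6 background and 8 to 12 weeks old. Mx-Cre makes the recombinase wherever cells respond to interferon, so deletion is not limited to blood cells. Both genotypes were given 7 doses of poly(I)poly(C), an interferon inducer, at 25 ug/kg, and marrow was collected 4 days after the final dose, so no group was free of the inducer. Long-term hematopoietic stem cells (LT-HSCs, Lineage- c-Kit+ Sca-1+ CD34-) and multipotent progenitors (MPPs, the same gate but CD34+) had 2 KO and 2 control arrays each. Myeloid progenitors (MyPs, Lineage- c-Kit+ Sca-1-) had 3 KO and 3 control arrays. Each array stands for marrow pooled from 4 to 6 mice of 1 genotype, and same-numbered KO and control pools were littermates.

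Class II molecules are pairs of an alpha and a beta chain that display peptides from engulfed proteins to CD4 T cells. The invariant chain CD74 holds the new pair together and blocks its groove, and H2-DM then exchanges the remaining invariant chain fragment for a peptide. B cells, dendritic cells and macrophages carry high levels, and CIITA, a coactivator that does not bind DNA itself, switches the whole group on by joining factors bound to the X and Y boxes of the promoters.

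The promoters are shown because these boxes are where the shared regulators act. Whether the boxes bear on which members differed between populations was not tested. RefSeq windows of GRCm38.p6 run from 250 bases before to 50 bases after each annotated start, and they were available for H2-Aa, H2-Eb1, H2-DMa and H2-DMb1. Cd74, H2-Ab1 and Ciita had no entry. Capitals mark matches on either strand to an X box core (AACNGATG), a Y box core (GATTGG) or a cyclic AMP response element (TGACGTCA), the last of which resembles the second part of the X box. The letters were chosen with the sequences in view, no motif overlapped another, and a match describes the sequence only. Positions count back from the start.
H2-Aa (chr17:34287774-34288073, minus strand): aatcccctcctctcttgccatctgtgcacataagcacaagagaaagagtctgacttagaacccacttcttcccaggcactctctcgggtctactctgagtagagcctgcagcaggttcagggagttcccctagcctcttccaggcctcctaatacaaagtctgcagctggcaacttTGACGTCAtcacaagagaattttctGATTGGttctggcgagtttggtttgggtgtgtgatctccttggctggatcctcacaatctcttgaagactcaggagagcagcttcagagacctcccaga
H2-Eb1 (chr17:34305617-34305916, plus strand): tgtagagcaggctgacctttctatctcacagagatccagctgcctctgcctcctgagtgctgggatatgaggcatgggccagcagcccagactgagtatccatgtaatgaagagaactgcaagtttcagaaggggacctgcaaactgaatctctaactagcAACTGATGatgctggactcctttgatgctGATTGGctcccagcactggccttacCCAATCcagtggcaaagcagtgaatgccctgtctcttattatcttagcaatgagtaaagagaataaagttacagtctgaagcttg
H2-DMb1 (chr17:34152941-34153240, plus strand): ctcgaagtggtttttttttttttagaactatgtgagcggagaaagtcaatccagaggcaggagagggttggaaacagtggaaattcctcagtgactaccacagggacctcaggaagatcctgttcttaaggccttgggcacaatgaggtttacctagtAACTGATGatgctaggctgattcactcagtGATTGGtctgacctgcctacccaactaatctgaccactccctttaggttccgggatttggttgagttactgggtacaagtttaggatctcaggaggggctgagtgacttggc
H2-DMa, start 1 (chr17:34122582-34122881, plus strand): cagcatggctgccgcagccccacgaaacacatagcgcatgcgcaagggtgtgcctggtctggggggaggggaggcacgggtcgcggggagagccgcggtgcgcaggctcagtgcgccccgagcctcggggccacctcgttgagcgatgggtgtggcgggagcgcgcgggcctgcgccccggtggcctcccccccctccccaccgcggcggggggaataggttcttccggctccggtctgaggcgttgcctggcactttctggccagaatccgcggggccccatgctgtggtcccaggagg

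The H2-Eb1 window held an X box core from -89 to -82 and a Y box core from -60 to -55, with 21 bases between them, and another Y box core on the opposite strand from -35 to -30. In the H2-DMb1 window the X box core (-92 to -85) and the Y box core (-62 to -57) were 22 bases apart. The H2-DMb2 window had the same spacing of 22 bases. H2-Aa had no X box core of these letters, but a cyclic AMP response element from -74 to -67 stood 17 bases before its Y box core at -49 to -44. H2-DMa had no match at its first annotated start and 1 Y box core, from -199 to -194, at its second. A box outside the windows, or one of other letters, would not be seen here. Of all 32851 promoter windows of this length, 2.32% held an X box core, 16.1% a Y box core, 1.79% the response element and 0.335% both an X and a Y box core.

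**Figure D1:**
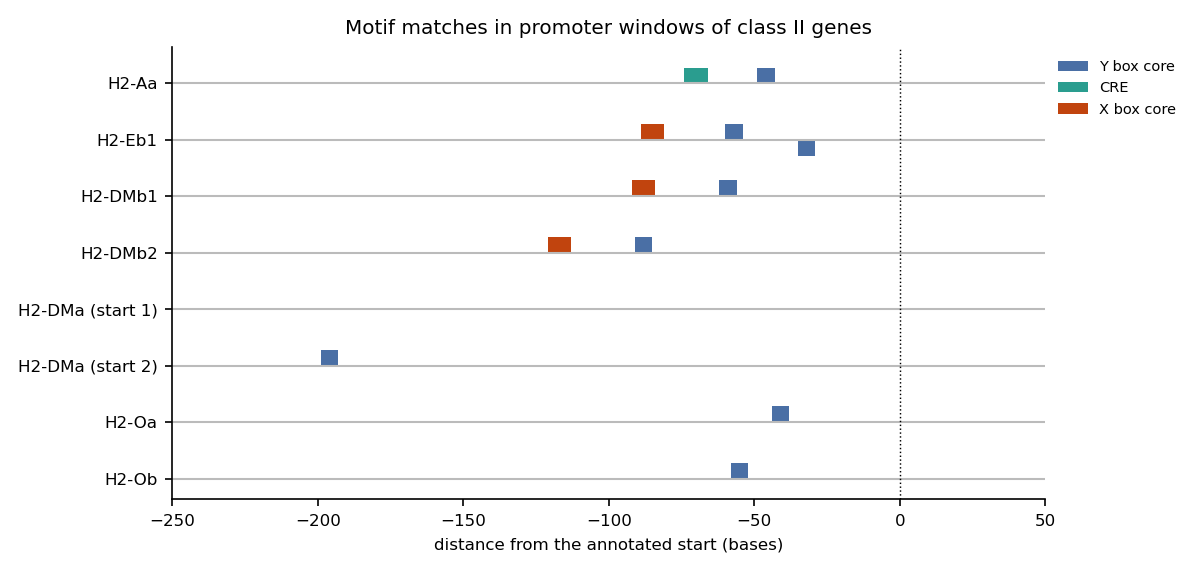
Positions of X box core (red), Y box core (blue) and cyclic AMP response element (CRE, green) matches in promoter windows of class II genes, in bases from the annotated start (dotted line at 0). Bars above a line are on the gene's strand and bars below it on the opposite strand. H2-Eb1, H2-DMb1 and H2-DMb2 each have an X and a Y box core on the gene's strand with 21 or 22 bases between them. The window of the first H2-DMa start has no match to these letters.

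The median probe set of an array read 41.1 to 49.1 intensity units, and the 40th percentile of an array, below which a signal was taken as dim, 19.8 to 26.9. Dnmt1 itself, the targeted gene, ranged from 745 to 1305 on the 7 KO arrays and from 1328 to 2219 on the 7 control arrays. The LT-HSC pair 1 arrays had Gapdh 3'/5' signal ratios, a measure of RNA length, of 5.15 (KO) and 5.44 (control), against 2.46 and 3.07 in pair 2. High ratios were also found for control MyP replicates 1 (5.27) and 2 (4.30) and KO MyP replicate 2 (4.35), and the other arrays were at or below 3.07. The Actb 3'/5' ratios of LT-HSC pair 1 were 0.754 (KO) and 0.808 (control), the lowest of the 14 arrays. B cell transcripts were high on all 4 LT-HSC arrays, as set out below beside the results they accompany. Of 11 tested stem cell genes, 3 were higher in LT-HSCs than in MPPs in each genotype (median log2 difference -0.14 in KO and -0.36 in control cells). Against MyPs 10 were higher in each genotype (medians 0.91 and 0.58). Of 10 tested erythroid genes, 8 were higher in LT-HSCs than in MPPs in each genotype (medians 0.89 and 1.35). The mix of cells behind these values was not tested. Intensities of different probe sets were not compared with each other. Differences are on the log2(intensity + 16) scale after quantile normalization, with the standard error (SE) of a limma fit to all 14 arrays and p-values adjusted by Benjamini and Hochberg over the 8612 genes. Values of a gene's other probe sets, and of those shared by H2-DMb1 and H2-DMb2, came from a second fit of that model. It took in all 15556 probe sets that passed the filter on dim signals, and its p-values were adjusted over these. A gene was called at an adjusted p below 0.05.

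The class II chains and Cd74 were higher in LT-HSCs than in MyPs in both genotypes. Cd74, H2-Aa, H2-Ab1 and H2-Eb1 passed the test in KO cells and in control cells, which was 4 of the 6 tested members. Of all genes tested, 3.75% were called between KO LT-HSCs and KO MyPs and 6.44% between control LT-HSCs and control MyPs. For these 4 genes every LT-HSC array was above every MyP array of the same genotype, as it was on the normalized scale for 19.8% of all genes in KO cells and 15.1% in control cells. The median difference of the 6 members was 2.13 in KO cells, where the median over all genes was 0.0065, and 1.77 in control cells, where it was -0.0010. In bulk samples of this kind, fewer cells carrying a transcript and less transcript per cell cannot be told apart.

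Cd74, the invariant chain, had the widest differences of the 6 members between LT-HSCs and MyPs and between MPPs and MyPs. Its intensity was 605 and 495 in KO LT-HSCs, 567 and 192 in KO MPPs, and 40.5, 19.9 and 30.3 in KO MyPs. In control cells it was 468 and 434 in LT-HSCs, 312 and 203 in MPPs, and 36.9, 32.4 and 13.4 in MyPs. Every LT-HSC and MPP array was above every MyP array, and 4 of the 6 MyP arrays were above the 40th percentile. The difference between LT-HSCs and MyPs was 3.63 ± 0.42 in KO cells (SE, n = 2 and 3, adjusted p = 0.00054) and 3.41 ± 0.42 in control cells (adjusted p = 0.0005). These are the only calls between LT-HSCs and MyPs, along with that of H2-Aa in KO cells, that held under every alternative giving the gene a value. The alternative without _s_ and _x_ probe sets gave none for H2-Aa.

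H2-Aa, the alpha chain of the I-A molecule, was read by probe set 1435290_x_at. Its intensity was 322 and 258 in KO LT-HSCs, 317 and 154 in KO MPPs, and 36.2, 16.3 and 37.4 in KO MyPs. In control cells it was 95.4 and 141 in LT-HSCs, 266 and 153 in MPPs, and 46.7, 15.1 and 14.6 in MyPs. Control LT-HSCs lay below control MPPs and above control MyPs without overlap. LT-HSCs exceeded MyPs by 2.75 ± 0.42 in KO cells (adjusted p = 0.0026) and by 1.71 ± 0.42 in control cells (adjusted p = 0.026). Of these arrays, KO MyP replicate 2 and control MyP replicates 2 and 3 were dim for H2-Aa. The call in control cells was lost without either control LT-HSC array, at 1.88 and 1.54 with adjusted p of 0.096 and 0.098, and without control MyP replicate 2 (1.51, adjusted p = 0.074) or 3 (1.54, adjusted p = 0.092). The same call was also lost with a pseudocount of 64 (1.00, adjusted p = 0.053), with only the groups compared (1.71, adjusted p = 0.057) and with the replicate block (1.54, adjusted p = 0.10). The second probe set, 1452431_s_at, gave differences of 1.54 (adjusted p = 0.074) in KO cells and 1.36 (adjusted p = 0.093) in control cells. All 6 MyP arrays were dim for it, so these values are fitted differences against a dim group.

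H2-Ab1, the beta chain that pairs with H2-Aa, was read by probe set 1450648_s_at. It gave 887 and 518 in KO LT-HSCs, 867 and 438 in KO MPPs, and 186, 223 and 176 in KO MyPs. In control cells it gave 583 and 412 in LT-HSCs, 667 and 324 in MPPs, and 209, 98.4 and 101 in MyPs. All MyP arrays lay below all LT-HSC and MPP arrays. LT-HSCs exceeded MyPs by 1.77 ± 0.43 in KO cells (adjusted p = 0.036) and by 1.84 ± 0.43 in control cells (adjusted p = 0.020). The other 2 probe sets of H2-Ab1 gave smaller differences that did not pass. Probe set 1451721_a_at gave 0.97 in KO cells (adjusted p = 0.23) and 0.58 in control cells (adjusted p = 0.48), and 1425477_x_at gave 0.89 (adjusted p = 0.19) and 0.56 (adjusted p = 0.40). Without KO LT-HSC replicate 1 the KO difference was 1.26 (adjusted p = 0.36), and without control LT-HSC replicate 1 the control difference was 1.52 (adjusted p = 0.19). The KO call was lost as well with array weights (1.80, adjusted p = 0.062), with the mean of the gene's probe sets (1.21, adjusted p = 0.059) and with the replicate block (1.68, adjusted p = 0.067). The control call was lost with the mean of the probe sets (0.99, adjusted p = 0.095). The KO call was also lost without KO MyP replicate 1, 2 or 3 (adjusted p of 0.10, 0.075 and 0.13), and the control call without control MyP replicate 2 or 3 (adjusted p of 0.057 and 0.074).

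H2-Eb1, the beta chain of the I-E molecule, had 155 and 165 in KO LT-HSCs, 111 and 79.8 in KO MPPs, and 18.3, 9.81 and 16.4 in KO MyPs. In control cells it had 265 and 59.5 in LT-HSCs, 69.0 and 76.6 in MPPs, and 21.1, 11.7 and 14.8 in MyPs. The control LT-HSC arrays were farther apart than those of any other group for this gene. LT-HSCs exceeded MyPs by 2.48 ± 0.45 in KO cells (adjusted p = 0.0068). All 3 KO MyP arrays were dim for H2-Eb1. The lower bound that dim signal alone sets on the estimate in KO cells was 2.19, which leaves out sampling error. The confidence interval of the limma fit for that difference was 1.51 to 3.45. In control cells the difference was 2.15 ± 0.45 (adjusted p = 0.011), with control MyP replicates 2 and 3 dim. That call was lost without control LT-HSC replicate 1 (1.13, adjusted p = 0.12), with only the groups compared (2.15, adjusted p = 0.075) and with the replicate block (2.14, adjusted p = 0.052). Without KO LT-HSC replicate 1 the KO difference was 2.43 (adjusted p = 0.069).

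H2-DMa, a subunit of the peptide exchange factor, was not called between populations. Its intensity was 59.7 and 182 in KO LT-HSCs, 215 and 145 in KO MPPs, and 156, 86.8 and 128 in KO MyPs. In control cells it was 25.1 and 190 in LT-HSCs, 349 and 238 in MPPs, and 87.6, 115 and 157 in MyPs. The LT-HSC and MyP arrays overlapped in both genotypes, and the low LT-HSC value of each genotype came from pair 1. These 2 arrays had high Gapdh 3'/5' ratios, as did 3 MyP arrays, whose H2-DMa was 86.8 to 115, and the part of RNA length was not tested. LT-HSCs minus MyPs was -0.16 in KO cells (95% confidence interval -1.32 to 1.01) and -0.53 in control cells (-1.70 to 0.64). Without both pair 1 arrays these values were 0.46 and 0.56.

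Ciita, the class II transactivator, was near the dim end on this array. Probe set 1421210_at ranged from 8.71 to 34.1 and was above the 40th percentile on 2 of 14 arrays, which were KO MPP replicate 1 with 34.1 and KO MyP replicate 1 with 23.2. The values were 8.71 and 17.0 in KO LT-HSCs, against 19.3 and 13.2 in control LT-HSCs, and 34.1 and 15.2 in KO MPPs, against 25.8 and 17.0 in control MPPs. In MyPs they were 23.2, 19.3 and 15.0 in KO cells, against 14.6, 16.1 and 15.9 in control cells. The second probe set, 1421211_a_at, ranged from 5.18 to 22.0, was above that level on 0 of 14 arrays, and did not pass the filter on dim signals. No difference in Ciita could be measured between LT-HSCs and MyPs of the control genotype, because all arrays of both groups were dim.

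**Figure D2:**
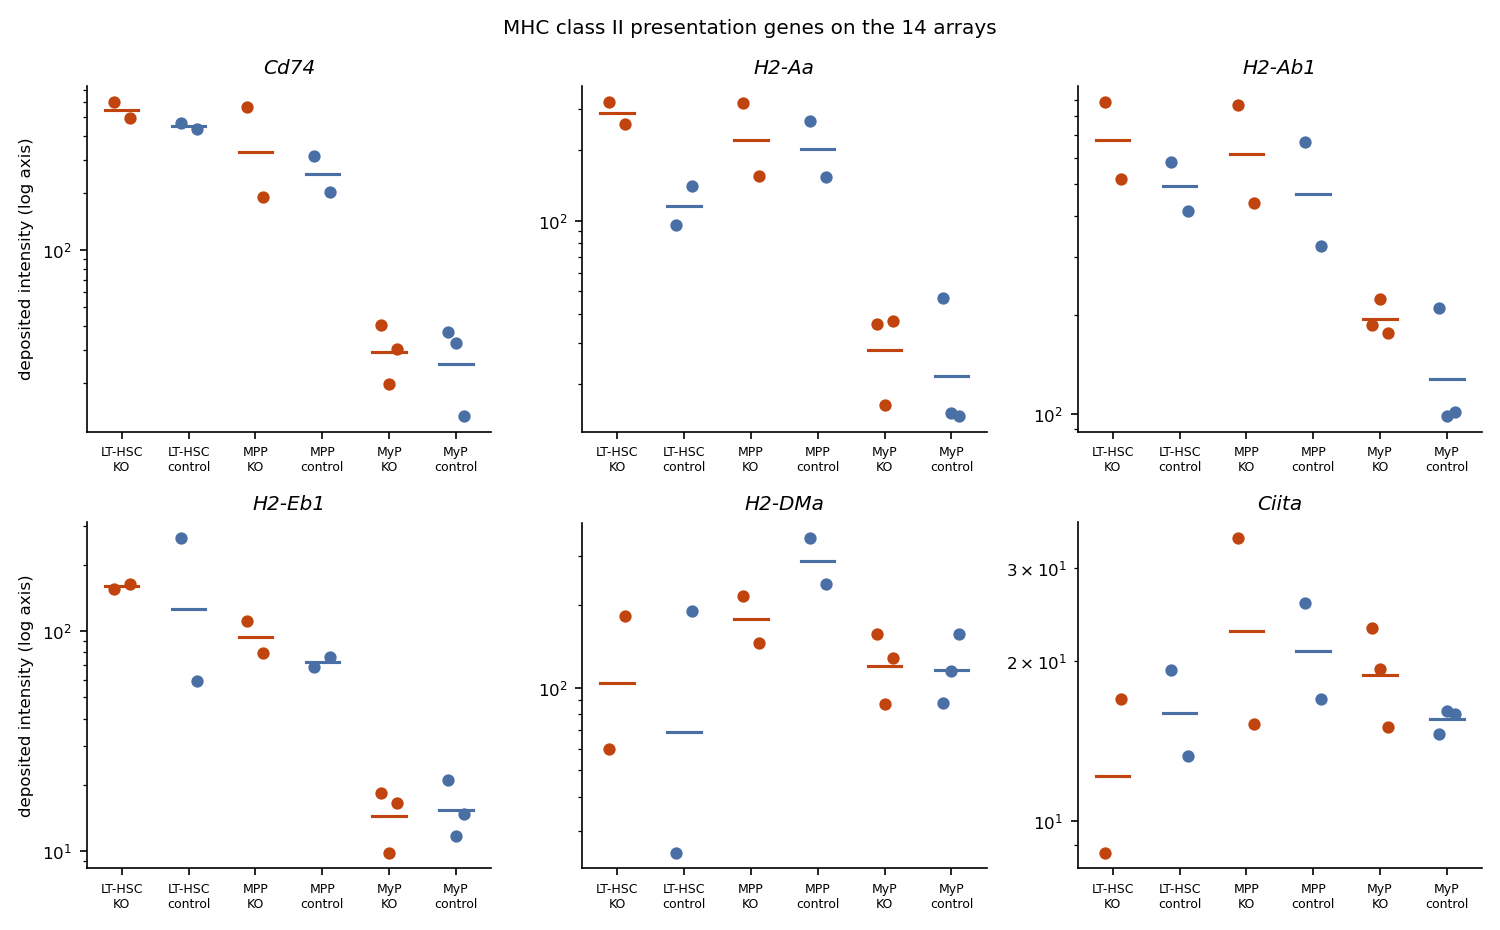
Deposited intensity of 6 class II presentation genes on each of 14 arrays (points, log axis), by population and genotype, with KO in red left of its control in blue and a bar at the geometric mean. Cd74, H2-Aa, H2-Ab1 and H2-Eb1 are lower on all 6 MyP arrays than on the LT-HSC and MPP arrays. H2-DMa overlaps between LT-HSCs and MyPs in both genotypes, but its control MPP arrays lie above the control LT-HSC and control MyP arrays. Ciita stays at or below 34.1.

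Between MPPs and MyPs 1 member passed, in control cells. Cd74 was higher in control MPPs than in control MyPs by 2.60 ± 0.42 (adjusted p = 0.033), and it was the 1 called of the 6 members, where 0.0813% of all genes were called. H2-Aa differed by 2.42 ± 0.42 (adjusted p = 0.059), H2-Ab1 by 1.75 ± 0.43 (adjusted p = 0.12) and H2-Eb1 by 1.42 ± 0.45 (adjusted p = 0.27). The control MPP arrays were above the control MyP arrays without overlap for Cd74, H2-Aa, H2-Ab1, H2-Eb1 and H2-DMa, as they were on the normalized scale for 10.9% of all genes. The Cd74 call depended on single arrays, since without control MPP replicate 1 the difference was 2.32 with an adjusted p of 0.89. It was also lost without any 1 of the control MyP arrays, at adjusted p of 0.063, 0.11 and 0.18, and without KO MyP replicate 3, at 0.068.

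In KO cells the differences between MPPs and MyPs were 2.91 for Cd74 (adjusted p = 0.071), 2.38 for H2-Aa (adjusted p = 0.22), 1.56 for H2-Ab1 and 1.81 for H2-Eb1 (both adjusted p = 0.61). For H2-Eb1 the lower bound that dim signal alone sets on the estimate was 1.52, which leaves out sampling error. The confidence interval of the limma fit for H2-Eb1 was 0.84 to 2.78. None of the 6 members was called by limma, nor was any other gene (0.0% of 8612), although 4 members and 5.62% of all genes had an unadjusted p below 0.05. Without KO MPP replicate 2 the Cd74 difference was 3.64 with an adjusted p of 0.0048. That array held 192 units of Cd74, against 567 on the other KO MPP array.

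None of the 6 members passed the test between LT-HSCs and MPPs. In KO cells the differences ran from -0.66 (H2-DMa) to 0.73 (Cd74), with 0.511% of all genes called, and 0 members and 10.1% of all genes had an unadjusted p below 0.05. In control cells they ran from -1.72 (H2-DMa) to 0.81 (Cd74), with 2.33% of genes called and 1 member, H2-DMa, at an unadjusted p below 0.05 (adjusted p = 0.18), as had 15.4% of all genes. The 95% confidence interval for Cd74 was -0.26 to 1.71 in KO cells and -0.17 to 1.80 in control cells. With 2 arrays a group, no difference and any difference within these bounds were thus not excluded. Without control LT-HSC replicate 2, H2-Eb1 (1.74, adjusted p = 0.020) and H2-DMa (-2.81, adjusted p = 0.012) passed between control LT-HSCs and control MPPs. The sign for H2-Ab1 depended on the probe set, at 0.09 in control cells with 1450648_s_at and -0.40 with 1451721_a_at. The comparisons between populations within a genotype share arrays, so they are not independent of each other.

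**Figure D3:**
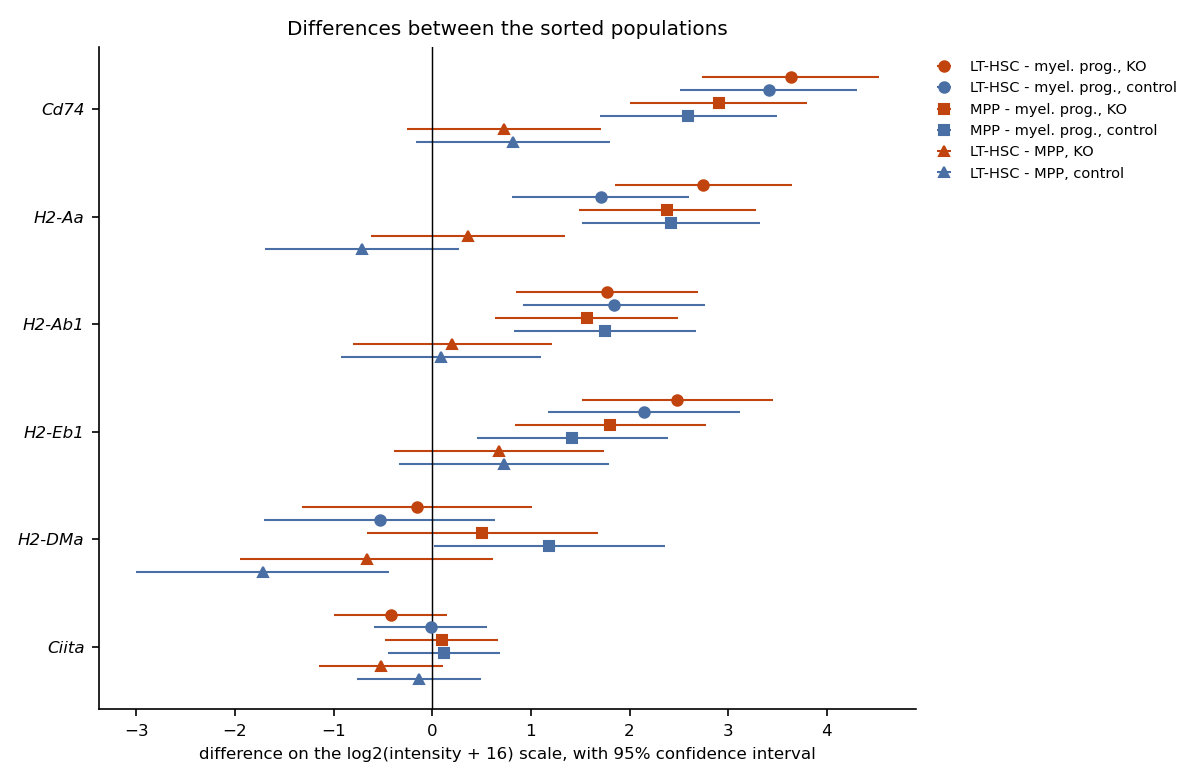
Differences between sorted populations for 6 class II genes on the log2(intensity + 16) scale, with 95% confidence intervals of the limma fit, KO in red and control in blue. Cd74, H2-Aa, H2-Ab1 and H2-Eb1 lie to the right of 0 for LT-HSCs minus MyPs and MPPs minus MyPs in both genotypes, and the intervals for LT-HSCs minus MPPs cross 0 for these 4 genes.

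Loss of Dnmt1, the maintenance DNA methyltransferase, moved no member past the threshold in any population. In LT-HSCs 0 of 6 members were called, where 0.0697% of all genes were. H2-Aa had 322 and 258 units in KO LT-HSCs, against 95.4 and 141 in control LT-HSCs, and the genotypes did not overlap, which on the normalized scale held for 25.1% of all genes. Its difference was 1.25 ± 0.46 (95% confidence interval 0.27 to 2.24), with an adjusted p of 0.56. Its second probe set gave 0.49 in the same comparison (adjusted p = 0.94). The other members differed by -0.24 (Ciita, dim on all arrays of both groups) to 0.53 (H2-Ab1), and their genotypes overlapped on the normalized scale. The deposited Cd74 intensities did not overlap, at 605 and 495 in KO LT-HSCs against 468 and 434 in control LT-HSCs.

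In MPPs the KO minus control differences ran from -0.60 (H2-DMa) to 0.42 (Cd74), with 0 members and 0.0697% of genes called. H2-DMa had 215 and 145 in KO MPPs, against 349 and 238 in control MPPs, without overlap, and H2-Eb1 had 111 and 79.8 in KO MPPs, against 69.0 and 76.6 in control MPPs, also without overlap. On the normalized scale 24.8% of all genes did not overlap between the genotypes in MPPs. In MyPs the differences ran from -0.02 (H2-Eb1) to 0.60 (H2-Ab1), and 0 members and 0.0929% of genes were called. The genotypes overlapped in MyPs for every tested member, while 5.89% of all genes did not overlap. Averaged over the 3 populations, H2-Aa differed by 0.55 ± 0.25 (adjusted p = 0.80) and H2-Ab1 by 0.51 ± 0.26 (adjusted p = 0.86). Of the 6 members, 5 had a positive mean, with a median of 0.25, and 0.232% of all genes were called. Members with an unadjusted p below 0.05 numbered 1 in LT-HSCs, 0 in MPPs, 0 in MyPs and 1 for the average, where the shares of all genes were 6.61%, 2.65%, 1.02% and 6.06%.

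Within the 7 littermate pairs, H2-Aa and H2-Ab1 were higher on the KO array of 6 pairs, Cd74 of 5, H2-Eb1 and Ciita of 4, and H2-DMa of 2. The H2-Aa differences by pair were 1.65 and 0.85 in LT-HSCs, 0.30 and 0.06 in MPPs, and -0.24, 0.13 and 0.75 in MyPs. Those of H2-Eb1 in LT-HSCs were -0.65 in pair 1 and 1.28 in pair 2, so the pairs went opposite ways. The KO effect was also compared between populations. For H2-Aa it was 1.08 ± 0.65 larger in LT-HSCs than in MPPs and 1.04 ± 0.59 larger than in MyPs, and neither passed (adjusted p = 1.00 for both). No member and no other gene was called in any of these 3 comparisons of effects (0.0% each). An unadjusted p below 0.05 was found for 0 members, and for 3.02% (LT-HSCs against MPPs), 2.65% (LT-HSCs against MyPs) and 0.488% (MPPs against MyPs) of all genes.

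**Figure D4:**
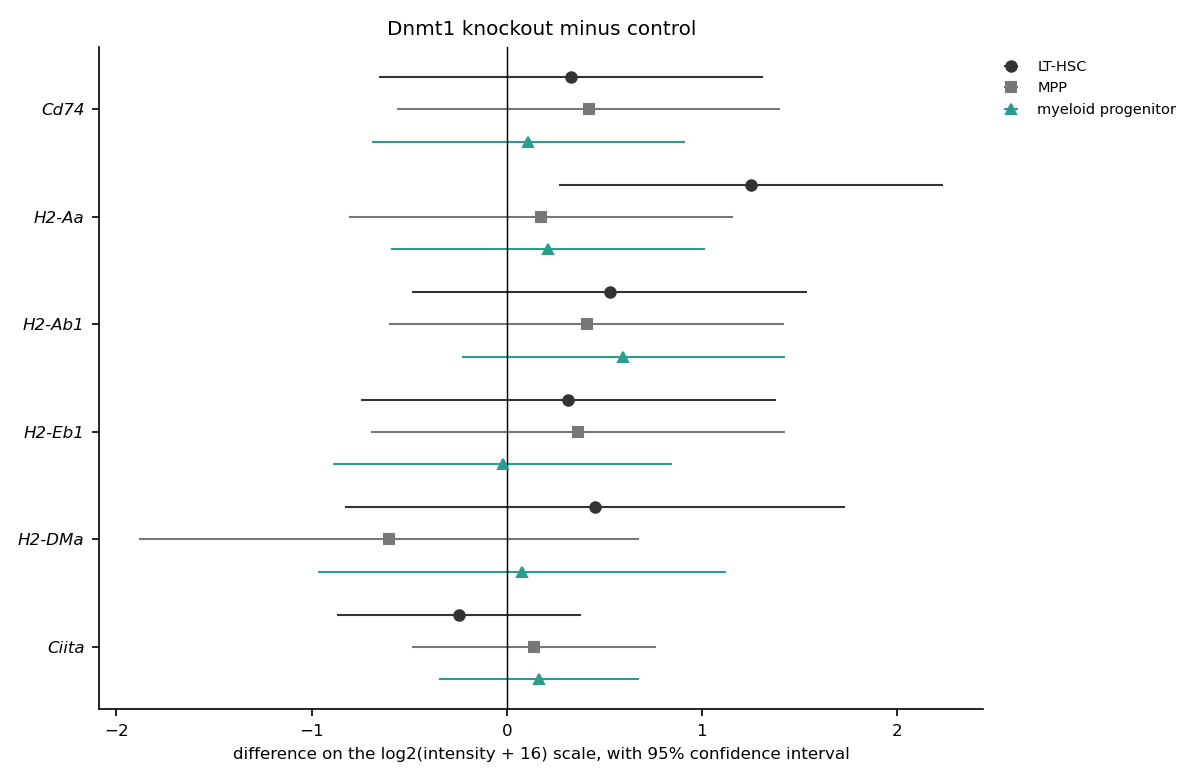
Dnmt1 KO minus control differences of 6 class II genes in LT-HSCs, MPPs and MyPs on the log2(intensity + 16) scale, with 95% confidence intervals of the limma fit. The interval of H2-Aa in LT-HSCs (0.27 to 2.24) lies above 0 without adjustment, and the other intervals include 0.

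H2-DMb1, the beta subunit of H2-DM, could be read only jointly with H2-DMb2. Shared probe set 1418638_at had 33.0 and 60.1 in KO LT-HSCs, 61.8 and 92.5 in KO MPPs, and 89.6, 86.4 and 101 in KO MyPs. In control cells it had 32.5 and 82.9 in LT-HSCs, 103 and 114 in MPPs, and 106, 96.1 and 85.1 in MyPs. The lowest LT-HSC arrays were again those of pair 1. LT-HSCs minus MyPs was -0.83 in KO cells (adjusted p = 0.17) and -0.69 in control cells (adjusted p = 0.23). Shared probe set 1449580_s_at ranged from 13.7 to 42.9 over all arrays, and the same differences were 0.33 (adjusted p = 0.55) and -0.22 (adjusted p = 0.71).

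Other class II chains stood apart from the members in part. H2-DMb2, the second H2-DM beta gene of the mouse, had 592 and 155 on its own probe set in KO LT-HSCs, against 31.1 and 46.6 in control LT-HSCs. The genotypes did not overlap, but the KO arrays were far apart, and the difference of 2.62 ± 0.68 did not pass (adjusted p = 0.40). By pair it was 3.79 and 1.46 in LT-HSCs, and between -0.80 and 0.87 in the other 5 pairs. The probe sets shared with H2-DMb1 did not show this rise to the same extent. KO minus control in LT-HSCs was -0.16 on 1418638_at (limma adjusted p = 0.99) and 0.50 on 1449580_s_at (limma adjusted p = 0.80). The reason was not tested. On the H2-DMb2 probe set KO LT-HSCs exceeded KO MyPs by 2.47 ± 0.62 (adjusted p = 0.043), while in control cells the difference was -0.40 (adjusted p = 0.77). H2-Oa, a subunit of the inhibitor of H2-DM, ranged from 50.9 to 134 over the 14 arrays and was called in 0 comparisons. H2-Ea, the alpha partner of H2-Eb1, was listed at 1.00 to 15.8 on its 3 probe sets and above the 40th percentile on 0 of 14 arrays. C57BL/6 mice are known to carry a defective H2-Ea gene.

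Most genes that regulate class II transcription were not called between populations, with a list of 16 of which 15 were tested. Its called genes numbered 2 between KO LT-HSCs and KO MyPs, 2 between the control ones, and 1 between control LT-HSCs and control MPPs. Irf4, an interferon regulatory factor of lymphoid cells, was higher in LT-HSCs than in MyPs by 2.49 in KO cells (adjusted p = 0.013) and by 2.54 in control cells (adjusted p = 0.0077). Irf8 was lower in control LT-HSCs than in control MyPs (-2.59, adjusted p = 0.019), and Spi1, the myeloid factor PU.1, was lower in KO LT-HSCs than in KO MyPs (-1.71, adjusted p = 0.035). The X box factors Rfx5, Rfxank and Rfxap and the Y box factors Nfya, Nfyb and Nfyc were called in 0 comparisons. Rfx5 had 186 and 196 in KO LT-HSCs, against 217 and 236 in control LT-HSCs.

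Of 13 listed genes that cut antigens or costimulate T cells, 8 were tested and 0 were called higher in any comparison. Ctsh, a cathepsin, was lower in LT-HSCs than in MyPs in KO cells (log2 difference -1.88, adjusted p = 0.027) and in control cells (-2.96, adjusted p = 0.0012). Ctsb, another cathepsin, was lower in control LT-HSCs (-1.33, adjusted p = 0.0071). Ctss, which trims the invariant chain, differed by -0.30 in KO cells (adjusted p = 0.71) and -0.51 in control cells (adjusted p = 0.49). Of 14 tested MHC class I presentation genes and 20 tested interferon response genes, limma called 0 between populations or genotypes, and at most 2 and 1 in a comparison had an unadjusted p below 0.05. The interferon response genes had a median difference between MPPs and MyPs of 0.54 in KO cells, with 17 of 20 positive, and 0.56 in control cells, with 18 of 20 positive. The median class I difference between LT-HSCs and MyPs was -0.04 in KO cells and -0.02 in control cells, against 2.13 and 1.77 for the class II members.

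Transcripts of B cells, which themselves carry class II, were higher in LT-HSCs than in MyPs, as were 4 of the class II members. Of 17 tested B cell markers, 10 were called higher and 0 lower in LT-HSCs than in MyPs in KO cells, and the same numbers in control cells. Their summed intensity was 9618 to 14036 in KO LT-HSCs and 10858 to 19455 in control LT-HSCs, and it was 2049 to 5186 in KO MPPs, 2209 to 3291 in control MPPs, 2702 to 3563 in KO MyPs and 2447 to 3378 in control MyPs. Cd79a, a chain of the B cell receptor, had 1380 and 320 in KO LT-HSCs, against 1682 and 559 in control LT-HSCs. Ms4a1, the gene of CD20, was not called in any of these comparisons, at 25.9 and 17.5 in KO LT-HSCs and 12.0 and 11.5 in control LT-HSCs. Rag1, a gene of early lymphoid cells on the same list, had 96.0 to 151 in KO LT-HSCs and 291 to 494 in control LT-HSCs. Igll1, also listed, had 1570 to 2246 in KO LT-HSCs and 1978 to 3275 in control LT-HSCs. The stage of the B lineage from which these transcripts came was not tested. Between KO and control LT-HSCs the B cell markers had a median difference of -0.38, with 4 of 17 positive. The members had a median of 0.39 there, with 5 of 6 positive, and 0 of either list were called (0.0697% of all genes). The part of B cell RNA in the LT-HSC values of the class II genes was not tested.

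The same markers were compared between MPPs and MyPs. Control MPPs and control MyPs differed by a median of -0.12 over the 17 B cell markers, with 0 called by limma and 1 at an unadjusted p below 0.05 (8.93% of all genes). The difference for Cd74 in that comparison was 2.60. Cd79a had 67.8 and 3.34 in KO MPPs and 19.0 and 4.14 in control MPPs, against 26.9, 20.5 and 7.51 in KO MyPs and 15.2, 9.60 and 7.20 in control MyPs. On KO MPP replicate 2 and control MPP replicate 2, where Cd79a was 3.34 and 4.14, Cd74 was 192 and 203, and the highest MyP array had 40.5. Cd72 is 1 of the 17 markers, of which 5 were higher in control MPPs than in control MyPs and 11 in KO MPPs than in KO MyPs. It did not pass the test against MyPs in KO cells (0.70, adjusted p = 0.90) or in control cells (1.22, adjusted p = 0.33). Tnfrsf13c is a B cell gene outside that list. Tnfrsf13c, the receptor of B cells for the survival factor BAFF, had 347 and 96.4 in KO MPPs and 419 and 173 in control MPPs, against 50.3, 28.4 and 39.0 in KO MyPs and 79.0, 42.8 and 18.1 in control MyPs. Cd72, a B cell surface receptor, had 179 and 93.8 in KO MPPs and 277 and 133 in control MPPs, against 83.0, 77.9 and 63.7 in KO MyPs and 102, 63.1 and 54.7 in control MyPs. The part of B cell RNA in the MPP values was not tested. Between control LT-HSCs and control MPPs the B cell markers differed by a median of 2.67, with 10 of 17 called, where the members had a median of -0.02 and 0 called.

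**Figure D5:**
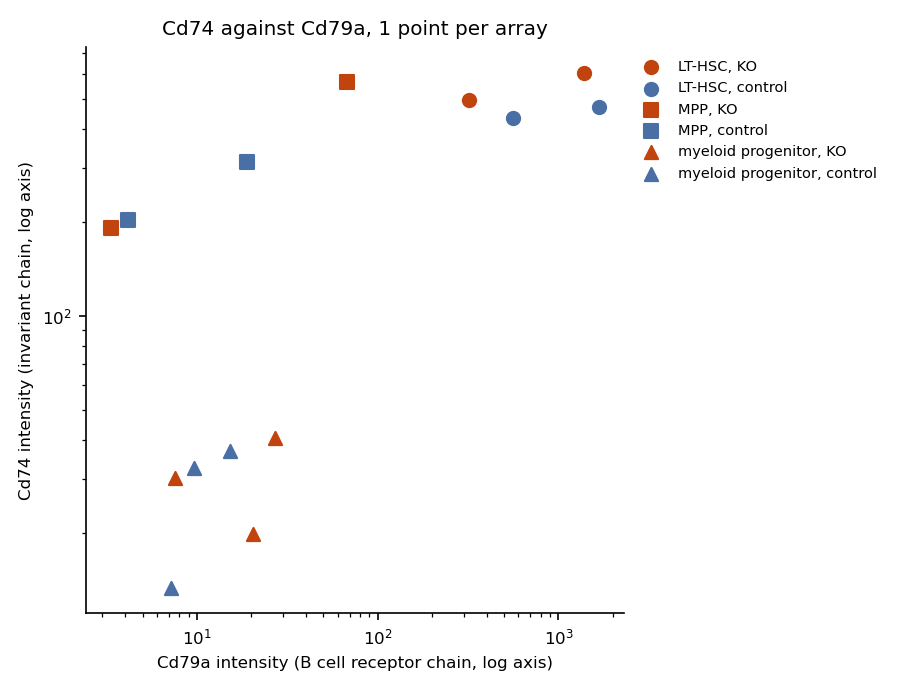
Cd74 against Cd79a intensity on 14 arrays (both axes log), by population (shape) and genotype (KO red, control blue). The 4 LT-HSC arrays have the highest Cd79a (320 to 1682), while the 4 MPP arrays have Cd74 of 192 to 567 at Cd79a of 3.34 to 67.8, and the 6 MyP arrays have Cd74 of 13.4 to 40.5.

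Markers of other cells that carry class II were also read. Of 9 tested dendritic cell markers, 1 was called higher and 0 lower in KO LT-HSCs than in KO MyPs, 1 higher and 1 lower in the control comparison, and 0 between MPPs and MyPs of either genotype, where 2 (KO) and 3 (control) had an unadjusted p below 0.05, as had 5.62% and 8.93% of all genes. Their summed intensity was 1790 to 1886 in KO LT-HSCs, 795 to 2729 in KO MPPs and 612 to 671 in KO MyPs, and 2130 to 3517 in control LT-HSCs, 1765 to 3611 in control MPPs and 437 to 1186 in control MyPs. That sum includes Dntt and Flt3, which early lymphoid progenitors also express. Itgax, the gene of CD11c, had 99.6 and 32.6 in KO MPPs and 73.8 and 61.4 in control MPPs, against 42.2, 13.2 and 24.4 in KO MyPs and 51.9, 13.5 and 21.2 in control MyPs. Zbtb46, on the same list, went the other way, with all MPP arrays dim for it. It had 11.3 to 22.4 in KO MPPs and 5.80 to 9.80 in control MPPs, against 18.8 to 38.7 in KO MyPs and 17.4 to 28.2 in control MyPs. Of the 9 markers, 8 were higher in MPPs than in MyPs in KO cells and 6 in control cells. The part of dendritic cell RNA in the class II values was not tested.

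Macrophage transcripts ran the other way. Of 14 tested monocyte and macrophage markers, 6 were called lower and 0 higher in KO LT-HSCs than in KO MyPs, and 8 lower and 0 higher in the control comparison. Their summed intensity was 914 to 1356 in KO LT-HSCs, 2173 to 3508 in KO MPPs and 5133 to 5971 in KO MyPs, and 764 to 923 in control LT-HSCs, 2346 to 4721 in control MPPs and 6000 to 6479 in control MyPs. The part of these cells' RNA in the class II values was not tested. T and NK cell markers, of which 12 were tested, had 5 called higher and 1 lower in KO LT-HSCs than in KO MyPs, and 3 higher and 1 lower in the control comparison. They summed to 1919 to 2665 in KO LT-HSCs, 1392 to 1493 in KO MPPs and 909 to 1308 in KO MyPs, and to 1096 to 1321 in control LT-HSCs, 1109 to 1506 in control MPPs and 948 to 1417 in control MyPs.

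Correlations across arrays carry the differences between populations as well as those between arrays of a group. Over the 14 arrays Cd74 had a Pearson r of 0.93 with H2-Aa, 0.93 with H2-Ab1 and 0.93 with H2-Eb1, but 0.05 with H2-DMa and -0.11 with Ciita. After each array's group mean was subtracted, r with Cd74 was 0.79 for H2-Aa, 0.73 for H2-Ab1, 0.36 for H2-Eb1, 0.02 for H2-DMa and 0.56 for Ciita. H2-Eb1 then had 0.18 with H2-Aa and 0.46 with H2-Ab1. These values are descriptions, since arrays of a population share their cells and littermates share a pair. In both genotypes MPP replicate 1 was above replicate 2 for Cd74, H2-Aa and H2-Ab1. Dntt, a lymphoid gene, was likewise 1671 in replicate 1 and 204 in replicate 2 of KO MPPs, and 2124 and 753 in control MPPs.

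Outside the members, the profile most like that of Cd74 over the 14 arrays was that of Tnfrsf13c (r = 0.95). Prkch (0.93), Igkv8-30 (0.92), Fyn (0.92) and Mylk (0.92) followed. For the mean of the tested members the closest genes were Mcoln2 (0.92), Igkv8-30 (0.92), Cers4 (0.91) and Thy1 (0.91). After group means were subtracted, those closest to the mean of the members were Ppfibp2 (0.94), Mfge8 (0.94), Dntt (0.94) and Rag1 (0.92), the last 2 being genes of early lymphoid cells. Tnfrsf13c had 991 and 354 in KO LT-HSCs, against 713 and 474 in control LT-HSCs.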

How the data were processed

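Affymetrix arrays measured RNA of 14 sorted samples, and the labels' protocols state amplification with the WT-Ovation Pico system. The authors deposited 1 intensity per probe set and array, which its values show to be linear and not logarithmic. The steps behind them (summary of probes, background correction, scaling) are not given in the sources used here. No value column was left unused (0).

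The values were taken as log2(intensity + 16) and quantile normalized. Probe sets were kept if above the 40th percentile of their array on at least 2 arrays, and the probe set with the highest mean stood for each gene. Symbols came from the platform annotation, which gives 1 symbol to 20393 probe sets, several to 691 and none to 1606. Probe sets with _s_ or _x_ in the name may bind other transcripts. The main limma fit (limma 3.58.1, R 4.3.3) of 6 group means with a mean-variance trend had 8 residual degrees of freedom and a median prior of 5.39. The same model was fitted to the 15556 probe sets kept, for the values of other and shared probe sets. Tests were two-sided, adjusted by Benjamini and Hochberg, with a threshold of 0.05. The fit was tested on simulated data. Figures used Python 3.11.15 and matplotlib 3.10.9. Precision depends on how many arrays each group has.

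The members and gene lists were chosen with earlier results of these data known. All members and probe sets were named, as were called genes of the other lists and up to 3 per list with the largest differences, main markers, and the 10 genes most like Cd74 or the members' mean, of which the leading ones are printed. Tnfrsf13c, Cd72, Rfx5, H2-Oa, Ctss, Ms4a1, Rag1 and Igll1 were given values after these were seen.

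Same-numbered KO and control arrays of a population are littermates, per the labels. Their deviations from group means correlated at 0.465 (LT-HSCs), 0.595 (MPPs) and 0.204, 0.543 and 0.613 (MyPs). The alternatives were other pseudocounts, filters, normalizations, probe set rules and variance models, the replicate block, only the groups compared, each array left out, and both LT-HSC pair 1 arrays left out.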

Additional observations from a re-analysis of the deposited data

How the results depend on the processing

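Under 27 alternative settings the KO effects called 0 members throughout, and the littermate replicate block changed no member call for them. For population differences the block used genotype and number, although number was not shown to pair populations. Its r was 0.139 (control) and 0.219 (KO) between LT-HSCs and MPPs, which share only 2 numbers, and -0.421 to 0.307 in comparisons with MyPs. With that replicate block, 3 members were called between KO LT-HSCs and KO MyPs (4 without it), 2 between the control ones (4 without it) and 0 between control MPPs and control MyPs (1 without it). Between control MPPs and control MyPs, 2 members were called without normalization, with the mean of a gene's probe sets and without both LT-HSC pair 1 arrays, 3 with array weights and 0 with a pseudocount of 64. Between LT-HSCs and MyPs, probe sets without _s_ or _x_ called 2 in either genotype, and in control cells only the groups compared called 2 and leaving out both pair 1 arrays called 1. With single arrays left out, the counts were 0 to 2 for control LT-HSCs against control MPPs, 0 to 3 for control MPPs against control MyPs, 1 to 4 for control LT-HSCs against control MyPs, 0 to 1 for KO MPPs against KO MyPs and 2 to 4 for KO LT-HSCs against KO MyPs. No value whose sign turned was called in the main analysis. Without both LT-HSC pair 1 arrays, KO minus control in LT-HSCs was -0.027 for H2-DMa and 0.098 for Ciita, control LT-HSCs minus control MPPs was -0.23 for H2-Ab1 and -0.29 for H2-Eb1, KO LT-HSCs minus KO MPPs was -0.30 for H2-Ab1, and LT-HSCs minus MyPs for H2-DMa was 0.46 (KO) and 0.56 (control). LT-HSCs minus MPPs for H2-Ab1 was -0.29 (KO) and -0.20 (control) with the mean of its probe sets, and -0.68 and -0.40 without _s_ and _x_ probe sets. Array weights gave KO minus control in MyPs of 0.031 for H2-Eb1 and -0.014 for H2-DMa, a pseudocount of 1 gave a mean KO effect of 0.019 for H2-DMa and -0.015 for Ciita, and control LT-HSCs minus control MyPs for Ciita was 0.026 without normalization and 0.0058 with median centring. With single arrays left out, KO minus control ranged in LT-HSCs from -0.70 to 1.33 (H2-Eb1) and -0.64 to 1.55 (H2-DMa), and in MPPs from -0.32 to 1.16 (Cd74), -0.31 to 0.66 (H2-Aa), -0.10 to 0.92 (H2-Ab1) and -0.16 to 0.44 (Ciita). In MyPs it ranged from -0.14 to 0.29 (Cd74), -0.16 to 0.13 (H2-Eb1) and -0.13 to 0.31 (H2-DMa), and on average from -0.12 to 0.56 (H2-Eb1), -0.39 to 0.34 (H2-DMa) and -0.081 to 0.12 (Ciita). Control LT-HSCs minus control MPPs ranged from -0.42 to 0.60 (H2-Ab1), -0.29 to 1.74 (H2-Eb1) and -0.27 to 0.0010 (Ciita), and control LT-HSCs minus control MyPs from -1.63 to 0.56 (H2-DMa) and -0.15 to 0.12 (Ciita). KO LT-HSCs minus KO MPPs ranged from -0.010 to 1.46 (Cd74), -0.12 to 0.85 (H2-Aa) and -0.30 to 0.71 (H2-Ab1), KO MPPs minus KO MyPs from -0.20 to 0.40 (Ciita), and KO LT-HSCs minus KO MyPs from -0.77 to 0.46 (H2-DMa). The cause of these changes was not tested. Of 1594 alternative values of single members, 1486 kept direction and call, 58 turned sign, 35 lost a call and 15 gained one. Ciita did not pass the stricter filter, H2-Aa has no probe set without _s_ or _x_, and the mean KO effect has no value with only the groups compared. Dim signal limits Ciita on 12 of 14 arrays, H2-Eb1 on 5, H2-Aa on 3 and Cd74 on 2, all in MyPs for the last 3 genes.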
